A study of Mus musculus with 3 samples.

Results

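*Ltf*, *Bpifa1*, *Bpifb1*, *Lcn2*, *Lpo*, *Pigr*, *Slpi*, *Wfdc2* and *Reg3g* encode antimicrobial and protective proteins of airway secretions. They were chosen by name, with no measured value in the rule, and all 9 were found once by symbol among the 33696 genes counted. The cells came from mouse larynges and were profiled by single-cell RNA sequencing, which counts RNA molecules by their unique molecular identifiers (UMIs). All animals carried Lrig1CreERT2/+; ROSA26CAG-LSL-tdTomato/+, so that tamoxifen, given on consecutive days, let cells with *Lrig1* promoter activity switch on the red reporter tdTomato, and red cells were sorted 24 h after recombination. There was 1 condition in 3 libraries, each a pool of 10 larynges from 5 males and 5 females. The library was the replicate, with n = 3 throughout, and single animals within a pool could not be told apart. Unlabelled wild-type and reporter-only larynges set the sort gates and were not sequenced as libraries analysed here. The animals' age was not given in the labels. Neither the reporter nor the recombinase is among the genes counted, so these counts give no check of the sort, and cells without *Lrig1* activity at the time of tamoxifen are outside the design.

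The fluid over the airway is made by secretory cells of the surface epithelium and by the serous and mucous cells of the submucosal glands. Its proteins act together: BPI-fold proteins bind bacterial lipids and lower surface tension, lactoferrin and lipocalin 2 keep iron from microbes, lactoperoxidase makes an oxidant from hydrogen peroxide and thiocyanate, the polymeric immunoglobulin receptor carries IgA across the epithelium, whey acidic protein (WAP) family members such as SLPI inhibit proteases, and the lectin REG3G binds the wall of Gram-positive bacteria. Basal cells are the stem cells of this epithelium and are not known as its main source of secreted protein.

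The 9 genes lie at separate loci, 5 of them on chromosome 2 (GRCm39, GENCODE vM39). *Bpifa1* (chromosome 2, 153984800 to 153991139, + strand) and *Bpifb1* (chromosome 2, 154032738 to 154062289, + strand) are neighbours in the BPI-fold cluster, 41598 bases apart with 1 gene between them. *Slpi* (chromosome 2, 164195990 to 164231015, − strand) and *Wfdc2* (chromosome 2, 164403475 to 164411377, + strand) lie 172459 bases apart in the WAP cluster. *Lcn2* is at chromosome 2, 32274645 to 32278264, − strand. *Ltf* is at chromosome 9, 110848339 to 110871835, + strand, *Lpo* at chromosome 11, 87697253 to 87719369, − strand, *Pigr* at chromosome 1, 130754397 to 130779986, + strand, and *Reg3g* at chromosome 6, 78443246 to 78445859, − strand. The annotated span of *Slpi* overlaps *Matn4* on the same strand, so reads of these genes may have been split between them. The canonical *Slpi* transcript runs from 164195990 to 164198427. *Pigr* overlaps *Gm15848*, a long noncoding RNA on the opposite strand, which a stranded protocol tells apart.

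The promoters of *Bpifa1*, *Bpifb1* and *Ltf* are shown because these genes had the highest levels in secretory cells (*Bpifa1*) and gland cells (*Ltf* and *Bpifb1*), and because the BPI-fold neighbours differed in where they were found. Each run holds the 250 bases before the start of the canonical transcript, 5′ to 3′ on the gene's strand, with matched letters in capitals. No annotated exon lies in these windows.
*Bpifa1*, chr2:153984550-153984799: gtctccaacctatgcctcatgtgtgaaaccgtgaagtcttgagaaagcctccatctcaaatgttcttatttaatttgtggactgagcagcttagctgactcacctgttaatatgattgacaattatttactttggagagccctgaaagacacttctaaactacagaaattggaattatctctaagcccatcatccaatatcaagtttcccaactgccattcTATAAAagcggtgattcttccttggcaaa
*Bpifb1*, chr2:154032488-154032737: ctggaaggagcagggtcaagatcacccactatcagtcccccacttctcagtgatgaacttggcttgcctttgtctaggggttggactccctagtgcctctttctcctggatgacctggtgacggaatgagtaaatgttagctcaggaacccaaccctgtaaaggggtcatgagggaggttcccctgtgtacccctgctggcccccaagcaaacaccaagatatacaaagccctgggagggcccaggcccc
*Ltf*, chr9:110848089-110848338: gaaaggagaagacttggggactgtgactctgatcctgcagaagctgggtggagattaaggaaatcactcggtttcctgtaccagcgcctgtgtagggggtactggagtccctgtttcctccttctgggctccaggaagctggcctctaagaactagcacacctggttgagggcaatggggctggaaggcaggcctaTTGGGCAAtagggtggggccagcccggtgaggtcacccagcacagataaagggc
The capitals mark the TATA letters TATAAA at −29 to −24 of *Bpifa1* and the C/EBP letters TTNNGCAA at −54 to −47 of *Ltf*, counted back from the transcript start. The *Bpifb1* window held none of 7 motifs searched on both strands. The motifs were chosen with the sequences in view, and no match says only that these letters are not in this window. TATAAA was found in 11.9% of 21757 promoters of protein-coding genes and in 2 of the 9 members (*Bpifa1* and *Reg3g*). TTNNGCAA was in 9.34% of promoters and in 3 members (*Ltf*, *Lcn2* and *Slpi*), without overlap with another motif in *Ltf*. The NKX2 letters CAAGTG were in 12.4% of promoters and in 1 member, *Slpi*. No member held the FOX letters TGTTTAC (2.72% of promoters), the NF-kB letters (GGG, any 2 bases and TTTCC; 1.47%), the STAT letters TTCNNNGAA (7.7%) or the ETS letters CCGGAAG (6.89%).

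After filters and doublet removal, libraries 1, 2 and 3 held 13222, 7201 and 24119 cells with medians of 10652.5, 14151 and 10206 UMIs per cell. Cells were assigned to classes by UMI gates on marker genes that do not include the members. The secretory gate (*Scgb1a1*, *Scgb3a2*, *Cyp2f2*, *Aldh1a7*, *Scgb3a1*) held 4047 cells and the gland gate (markers that included *Dcpp1*, *Dcpp2*, *Dcpp3*, *Dmbt1*, *Bhlha15*, *Sox10* and *Azgp1*) held 169, of which 53, 33 and 83 came from libraries 1, 2 and 3. The luminal gate (*Sult1b1*, *Muc4*, *Atp6v0a4*, *Hpgds*, *Kcnj16*) held 1504 cells, the squamous gate (keratins 13 and 4 and cornified-layer genes) 1239, the basal gate (keratins 5, 14 and 15, *Trp63*, *Col17a1*) 19541 and the ciliated gate 1144. Endothelial (555) and skeletal muscle (2489) cells served as the background, since free RNA is counted in every droplet. Of the luminal cells, 10 also had 20 or more UMIs of the thyroid gene *Tg*, and the levels below hardly moved without them (for *Wfdc2*, a mean of 6108 against 6044 CPM). Between 46 and 165 barcodes were shared by pairs of libraries. Endothelial cells came mostly from library 1 (487, 28 and 40 in libraries 1, 2 and 3). Levels are UMIs of the gene in CPM, that is per 1000000 UMIs summed over a class in a library. Each UMI is a molecule counted at its 3′ end, so levels were compared between genes without a length term.

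**Figure D1:**
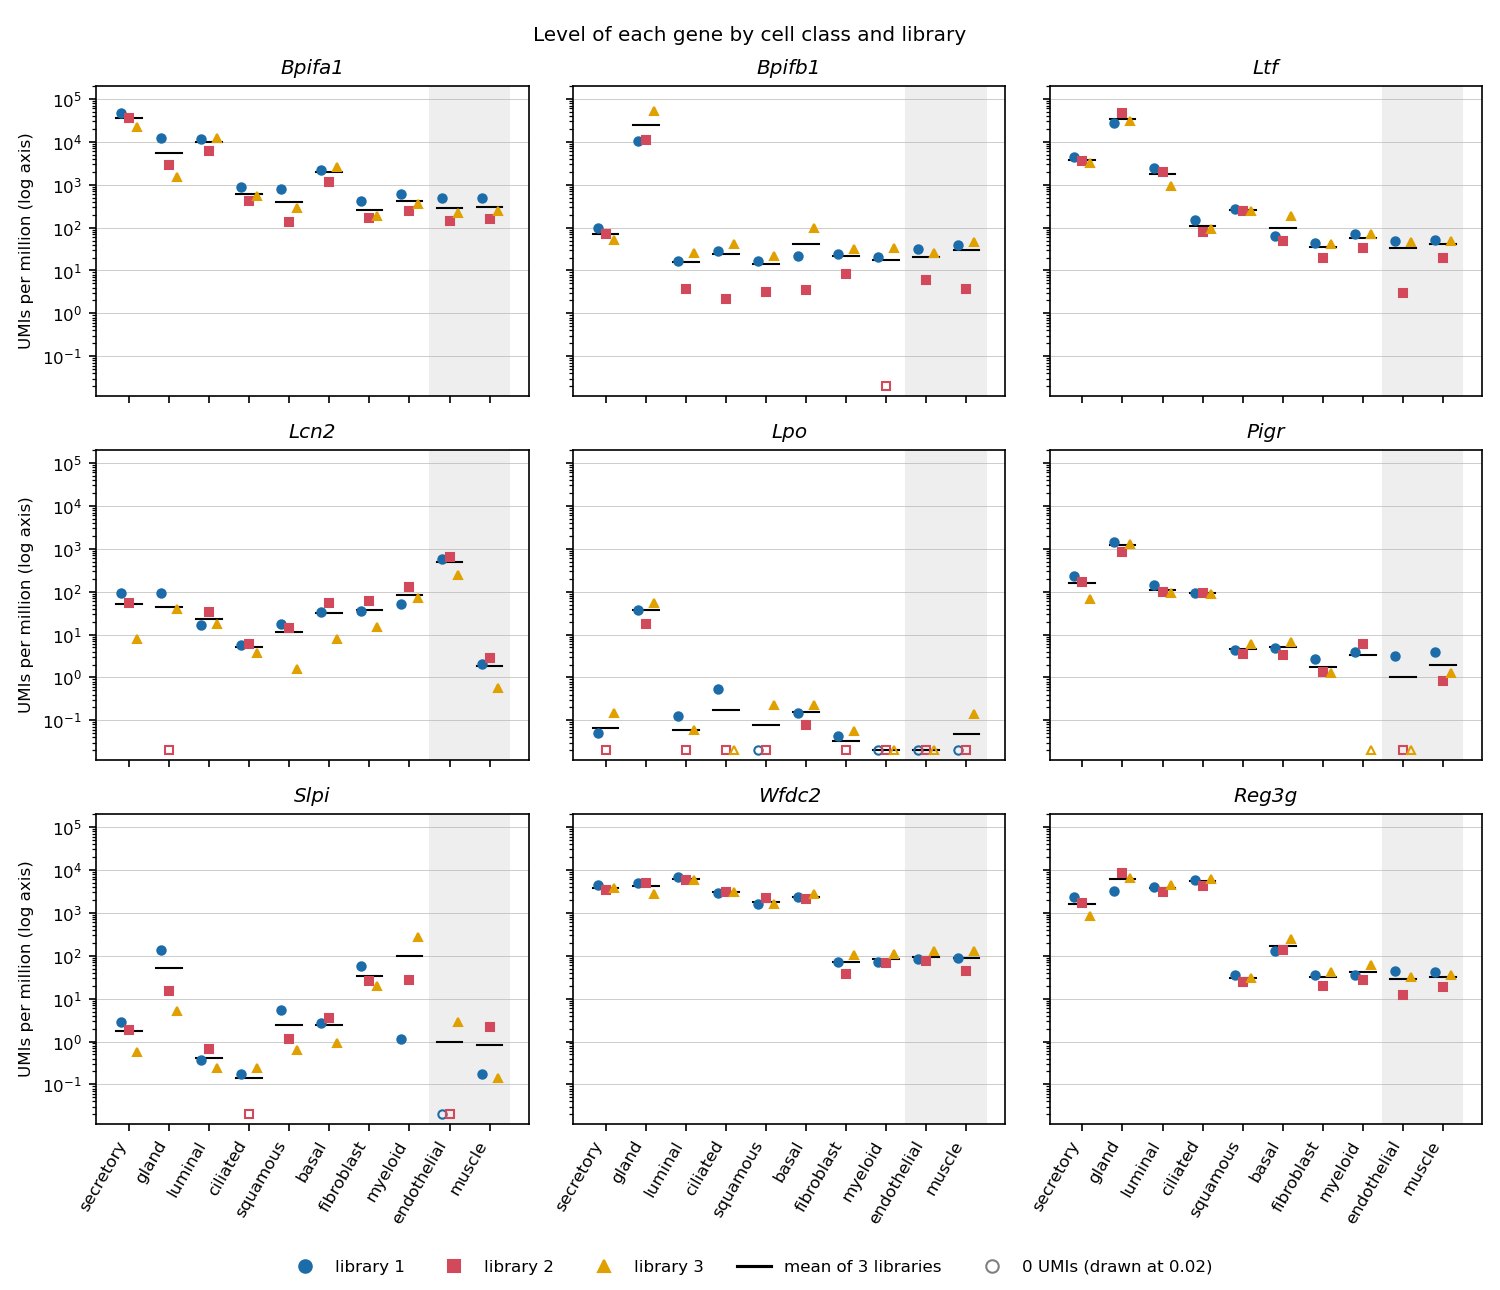
Level of each of the 9 genes in every cell class on a log axis of CPM, with 1 point per library, a bar at the mean of 3 libraries, grey shading on the 2 background classes and open points for 0 UMIs. *Bpifa1* was highest in secretory cells, *Ltf*, *Bpifb1*, *Lpo* and *Pigr* in gland cells, *Wfdc2* in luminal cells and *Lcn2* in endothelial cells, and the lowest *Wfdc2* level in an epithelial class was 1625 CPM.

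*Bpifa1*, a BPI-fold protein of the airway surface also known as SPLUNC1, was the most abundant of the 9 genes, with 4354625 UMIs. Secretory cells held 52.4% of them at 48185, 35944 and 21781 CPM in libraries 1, 2 and 3. Luminal cells had 11359.8, 6046 and 12158 CPM, and basal cells 2161, 1173 and 2578 CPM. Secretory levels lay above the luminal levels, and luminal above basal, without overlap. With cells pooled over the libraries, the median cell had 794 CPM in the secretory, 397 CPM in the luminal and 301 CPM in the basal class. It had 439 CPM in the endothelial and 220 CPM in the muscle class. Cells at or over 1000 CPM, again pooled, were 47.6% of secretory, 38.1% of luminal and 27.6% of basal cells. They were 12.3% of endothelial and 4.62% of muscle cells. Gland cells had 12464, 2940.3 and 1482 CPM and overlapped both luminal and basal cells. Most of the gland signal came from few cells, since 10 of the 169 held 92.8% of its UMIs. Squamous cells had 774, 135 and 292 CPM, against 485, 144 and 214 CPM in endothelial and 485, 157 and 243 CPM in muscle cells, so that the squamous level overlapped the background.

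*Bpifa1* differed 4.29 ± 0.74 (log2, SE) between secretory and basal cells (edgeR quasi-likelihood test, adjusted p = 0.000185), which is 8.45 to 30.6 times in the single libraries. It was higher in secretory than in gland cells by 2.18 ± 0.67 (edgeR, adjusted p = 0.0176) and higher in luminal than in basal cells by 2.40 ± 0.68 (edgeR, adjusted p = 0.0168). It was lower in squamous than in basal cells by a log2 fold change of −2.14 ± 0.67 (edgeR, adjusted p = 0.0192). These last 3 calls were lost without library 2 (edgeR, adjusted p = 0.104, 0.0728 and 0.0774, in the same order) and without library 3 (adjusted p = 0.122, 0.0935 and 0.147). The first was also lost with gates at 2 times the UMI threshold (1.73, edgeR, adjusted p = 0.0838). The higher level in gland than in basal cells, 2.11 ± 0.67 (edgeR, adjusted p = 0.0184), was lost without library 1 (0.88, adjusted p = 0.24) and without library 2 (2.17, adjusted p = 0.052), and in library 3 the gland level was 0.575 times the basal level. Basal cells stood above the background by 2.70 ± 0.54 (edgeR, adjusted p = 0.000169). Medians of cells and shares over 1000 CPM pool the libraries, and the classes differ in their mix. Library 1 gave 487 of 555 endothelial but 3591 of 19541 basal cells. In library 1 the background level was also highest, at 485 CPM in both classes. The basal median of 301 CPM, beside 220 CPM in muscle and 439 CPM in endothelial cells, is therefore no comparison within a library. Of basal cells, 27.6% were at or over 1000 CPM.

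*Bpifb1*, the long BPI-fold neighbour also known as LPLUNC1, had a different distribution. Gland cells had 10720 CPM in library 1, 10727 in library 2 and 52632 in library 3, and held 57.0% of 134968 UMIs. A *Bpifb1* UMI was found in 77 of 169 gland cells, the median gland cell had 0 CPM, and 10 cells held 76.7% of the gland UMIs. Secretory cells had 95.8, 71.5 and 50.8 CPM, and basal cells 22.0, 3.55 and 100.2 CPM, so that these classes overlapped. Muscle cells had 38.5, 3.65 and 46.9 CPM. Every class outside the glands therefore overlapped a neighbour in the order of levels down to the background. The difference of gland from basal cells was 9.92 ± 1.32 on the log2 scale (edgeR, adjusted p = 1.21e-06), and that of secretory from gland cells −8.97 ± 1.27 (edgeR, adjusted p = 4.66e-06). Secretory cells differed from basal cells by 0.95 ± 0.91 (edgeR, adjusted p = 0.635), with a 95% interval from −0.87 to 2.77. With the library as a block in the fit the value was 2.05 ± 0.59 (edgeR, adjusted p = 0.0149). Basal cells differed from the background by 0.55 ± 0.84 (edgeR, adjusted p = 0.632), and by −0.88 without library 3 (adjusted p = 0.469). In library 3, basal cells with fewer than 5000 UMIs had 364 CPM, those with 5000 to 15000 UMIs 177 CPM and deeper ones 26.6 CPM, while muscle cells with fewer than 5000 UMIs had 99.1 CPM. The part of depth and free RNA in the basal level was not tested.

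*Ltf*, lactoferrin, was also led by the gland, at 28045, 46200 and 30124 CPM. Secretory cells had 4461, 3488 and 3206 CPM and luminal cells 2480.6, 1956 and 908 CPM. Squamous cells had 272, 239.6 and 248 CPM, a narrow range above the ciliated level of 152, 77.3 and 90.8 CPM. Few cells carried these levels outside the glands, since the median cell had 36.6 CPM in the secretory, 54.3 CPM in the luminal and 26.9 CPM in the squamous class, against 14895 CPM in the glands. Cells over 1000 CPM were 15.6% of secretory and 16.2% of luminal cells, and 10 of 1239 squamous cells held 51.0% of the squamous UMIs. Gland, secretory, luminal and squamous cells did not overlap one another, whereas ciliated, basal and background cells did. Basal cells had 63.7, 48.3 and 182 CPM, against 52.6, 19.7 and 49.2 CPM in muscle cells.

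The gland level of *Ltf* was above the basal level by 9.09 ± 0.65 on the log2 scale (edgeR, adjusted p = 1.98e-11), and the secretory level by 5.38 ± 0.55 (edgeR, adjusted p = 1.36e-07). Luminal cells were higher than basal cells by 4.28 ± 0.52 (edgeR, adjusted p = 1.04e-06), and secretory cells lower than gland cells by −3.71 ± 0.51 (edgeR, adjusted p = 2.74e-06). Squamous cells were higher than basal cells by 1.54 ± 0.47 (edgeR, adjusted p = 0.0147), a call lost without library 1 (1.27, adjusted p = 0.231), without library 2 (1.26, adjusted p = 0.0526) and before doublet removal (1.33, adjusted p = 0.0928). Basal cells were above the background by 1.26 ± 0.41 (edgeR, adjusted p = 0.0123), a call lost without library 3 (0.59, adjusted p = 0.32), before doublet removal (1.18, adjusted p = 0.0597) and with gates at 2 times the UMI threshold (0.40, adjusted p = 0.488). In that library *Ltf* had 521 CPM in basal cells with fewer than 5000 UMIs, 289 CPM at 5000 to 15000 UMIs and 80.7 CPM above, so that the level was highest in the shallow cells. The part of free RNA was not tested.

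*Lcn2*, the lipocalin that binds bacterial siderophores, was led by a class outside the epithelium. Endothelial cells had 564, 643 and 239.9 CPM, above every other class, and 38.2% ± 7.33 (SD, n = 3 libraries) of them had a UMI. Muscle cells had 2.09, 2.82 and 0.567 CPM, and basal cells were 15.8, 19.3 and 13.6 times as high as these. Secretory cells had 95.5, 55.0 and 7.98 CPM, and basal cells 33.0, 54.5 and 7.69 CPM. Gland cells had 93.2 CPM in library 1, no UMI in the 33 cells of library 2 and 38.9 CPM in library 3. Library 3 was the lowest of the 3 in secretory and basal cells alike. *Lcn2* was not called in any of the comparisons between epithelial classes, with 0.85 ± 0.73 for secretory against basal cells (edgeR, adjusted p = 0.586) and a 95% interval from −0.62 to 2.32. Since the background is the mean of endothelial and muscle cells, the test of basal cells against it says little for a gene with its highest level in endothelial cells (0.10 ± 0.77, edgeR, adjusted p = 0.949). In basal cells with a UMI of the airway regulator *Nkx2-1*, *Lcn2* was at 55.5, 81.2 and 11.5 CPM, and in those without at 14.7, 38.3 and 4.87 CPM, a split made after its values were seen.

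*Lpo*, lactoperoxidase, was rare, with 190 UMIs in all cells, of which 106 were in the 169 gland cells. Gland levels were 38.1, 18.0 and 55.8 CPM, and no class outside the glands passed 0.525 CPM in a library. A UMI was found in 18.9%, 6.06% and 19.3% of gland cells (95% Wilson intervals 10.6 to 31.4%, 1.68 to 19.6% and 12.2 to 29.0%), which cover counting error only. It was counted in 0 of 555 endothelial cells, which allows a share of cells with a UMI of up to 0.541% at their lower depth. The level was higher in gland than in basal cells by 8.45 ± 0.71 on the log2 scale (edgeR, adjusted p = 3.24e-09), and lower in secretory than in gland cells by −9.18 ± 0.79 (edgeR, adjusted p = 8.45e-09).

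*Pigr*, the receptor for polymeric IgA, followed the order gland, secretory, luminal and ciliated by mean level. Gland cells had 1467, 837 and 1273 CPM, secretory cells 238, 171 and 66.1 CPM, luminal cells 143, 95.8 and 95.2 CPM and ciliated cells 92.4, 93.6 and 86.1 CPM. Secretory and luminal cells overlapped, and the ciliated level lay just under the luminal one. In library 3 the secretory level lay under both the luminal and the ciliated level. Basal cells (4.98, 3.42 and 6.80 CPM) and squamous cells (4.32, 3.59 and 5.97 CPM) overlapped each other. Against basal cells, *Pigr* was higher by 8.50 ± 0.48 in gland (edgeR, adjusted p = 2.82e-13), 5.09 ± 0.41 in secretory (edgeR, adjusted p = 4.82e-09) and 4.52 ± 0.41 in luminal cells (edgeR, adjusted p = 8.45e-09). The secretory level was lower than the gland level by −3.41 ± 0.38 (edgeR, adjusted p = 1.21e-07). Basal cells differed from the background by 1.14 ± 0.49 (edgeR, adjusted p = 0.0577), and by 1.29 ± 0.48 with the library as a block (edgeR, adjusted p = 0.0273).

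*Slpi*, the secretory leukocyte protease inhibitor, was scarce in the epithelium and dominated by other cells. Of 3101 UMIs, 56.7% were in fibroblasts, where 10 cells held 63.2% of them. Fibroblast levels were 57.2, 25.2 and 19.4 CPM, myeloid levels 1.12, 27.0 and 273 CPM and gland levels 136, 14.7 and 5.08 CPM. In the gland, 12 cells had any UMI of it, and a single cell of library 1 held 92 of the 119 UMIs, on which the gland level rests. Secretory and basal cells were at or under 3.57 CPM. *Matn4*, which overlaps the annotated span, was at 17.5, 11.8 and 24.5 CPM in fibroblasts and at or under 1.16 CPM elsewhere. The difference of gland from basal cells, 5.01 ± 1.09 (edgeR, adjusted p = 0.000763), was lost without library 1 (2.65, adjusted p = 0.158) and with gates at 2 times the threshold (2.97, adjusted p = 0.158). That of secretory from gland cells, −5.38 ± 1.15 (edgeR, adjusted p = 0.000821), was also lost under both (−3.60, adjusted p = 0.0834, and −2.40, adjusted p = 0.303).

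*Wfdc2*, the WAP protein also known as HE4, was the member spread most evenly over the epithelium. Its levels were 6779, 5674 and 5679.5 CPM in luminal, 5069, 4857 and 2783 CPM in gland, 4346, 3432 and 3814 CPM in secretory, 2827, 3040.4 and 3081 CPM in ciliated, 2355, 2070.3 and 2708 CPM in basal and 1645, 2163 and 1625 CPM in squamous cells. The highest level in endothelial or muscle cells was 127 CPM. Basal cells, the most numerous class, held 45.2% of its UMIs. Basal cells stood above the background by 4.71 ± 0.26 on the log2 scale (edgeR, adjusted p = 2.71e-14). Luminal cells were above basal cells by 1.42 ± 0.29 (edgeR, adjusted p = 0.00104) and gland cells by 1.43 ± 0.29 (edgeR, adjusted p = 0.000403), and both calls were lost without library 1 (1.32, adjusted p = 0.136, and 1.32, adjusted p = 0.0575). For secretory against basal cells the value was 0.81 ± 0.29 (edgeR, adjusted p = 0.0713), and 0.82 ± 0.26 with the library as a block (edgeR, adjusted p = 0.0289).

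*Reg3g*, the C-type lectin, had its highest levels in gland cells (3216, 8575 and 6565 CPM), ciliated cells (5952, 4205 and 6065 CPM) and luminal cells (3911, 3087 and 4545 CPM), which overlapped. In the glands 10 of 169 cells held 12356 of the 15444 *Reg3g* UMIs, and the median cell had 66.6 CPM. With cells pooled over the libraries, the median was 1844 CPM in the ciliated and 759 CPM in the luminal class. It was 94.3 CPM in the secretory and 56.9 CPM in the basal class. The gland level and the comparisons with it thus rest on few cells. Secretory cells had 2322, 1693 and 839 CPM, basal cells 129.8, 136 and 251 CPM and squamous cells 36.0, 24.0 and 30.8 CPM. Endothelial (43.4, 12.3 and 31.4 CPM) and muscle cells (40.9, 18.7 and 35.6 CPM) overlapped the squamous level. Against basal cells *Reg3g* was higher by 5.77 ± 0.46 in gland (edgeR, adjusted p = 2.04e-10), 4.56 ± 0.44 in luminal (edgeR, adjusted p = 2.36e-08) and 3.37 ± 0.41 in secretory cells (edgeR, adjusted p = 2.04e-06). It was lower in squamous cells by −2.34 ± 0.40 (edgeR, adjusted p = 9.995e-05). The secretory level was lower than the gland level by −2.40 ± 0.40 (edgeR, adjusted p = 4.09e-05), and the basal level above the background by 2.34 ± 0.34 (edgeR, adjusted p = 1.92e-06).

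**Figure D2:**
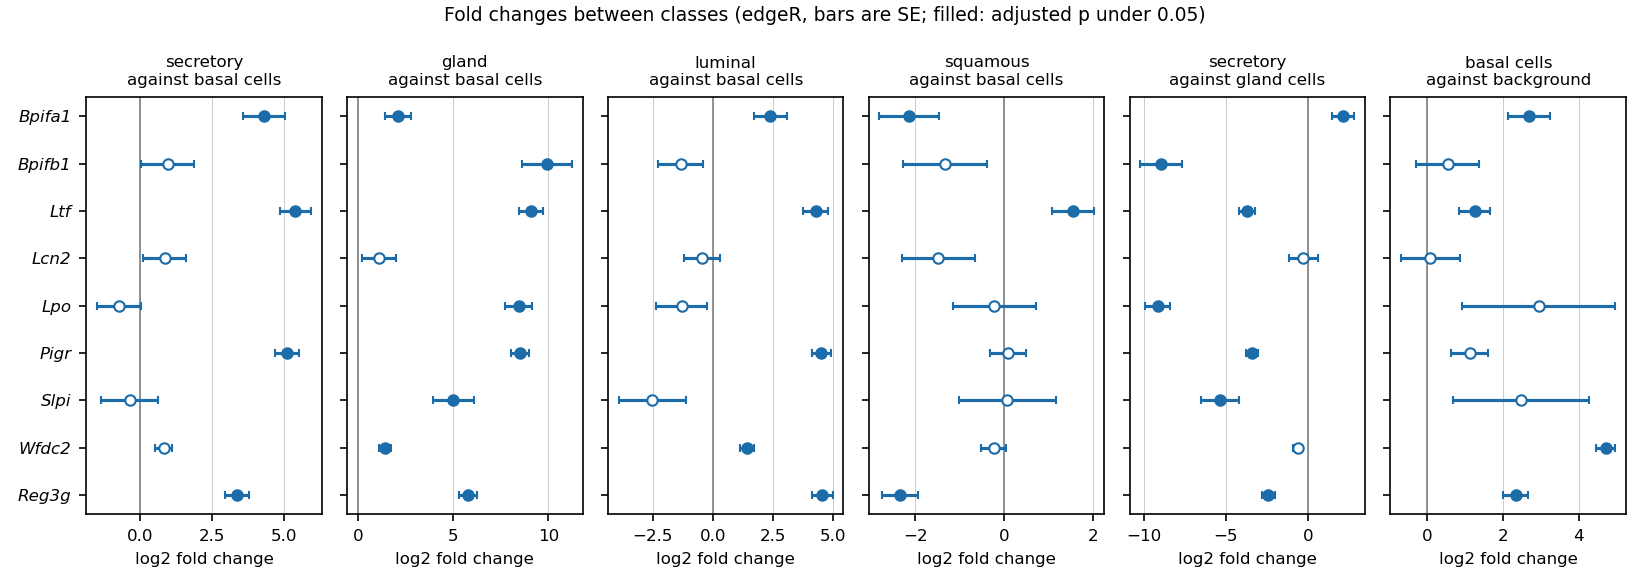
Log2 fold change of each gene in the class comparisons, with bars of 1 standard error and filled points where the edgeR adjusted p was under 0.05. In gland against basal cells 8 of the 9 genes are called higher, beside 14% of all genes tested. In squamous against basal cells *Ltf* is called higher (13.2% of all genes) while *Bpifa1* and *Reg3g* are called lower (14.7%).

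Counted over the 9 genes, 4 were higher in secretory than in basal cells (*Ltf*, *Pigr*, *Bpifa1* and *Reg3g*) and 0 lower by edgeR, while 5.97% of the 16987 genes tested were higher and 4.94% lower. At an unadjusted p under 0.05, 5 members passed, beside 3786 of the 16987 genes. The median log2 fold change of the 9 genes was 0.95 (0.70, 1.48 and 2.81 without libraries 1, 2 and 3), against −0.02 over all genes. DESeq2 called 5 members higher (8.15% of genes), and edgeR with the library as a block called 6, which adds *Bpifb1* and *Wfdc2* (9.5% of genes higher in that fit). In gland against basal cells 8 were higher, all except *Lcn2*, where 14% of genes were, with medians of 5.77 and −0.25. Without library 1, 5 were, beside 1612 of 16982 genes. In luminal against basal cells 5 were higher (6.77% of genes), with medians of 1.42 and −0.05. In squamous against basal cells 1 was higher and 2 lower (13.2% and 14.7% of genes), with medians of −0.24 and −0.10. Without libraries 1, 2 and 3 the median of the members was −1.36, −0.47 and −0.22, and that of all genes −0.08, −0.12 and −0.17. Without library 2 a single member passed, beside 3791 of 17552 genes. In secretory against gland cells 1 was higher and 6 lower (12.7% and 11.4% of genes), with medians of −3.41 and 0.19. In basal cells against the background 4 were higher (*Wfdc2*, *Bpifa1*, *Reg3g* and *Ltf*; 25.9% of genes), with medians of 2.34 and 0.07.

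The share of cells with a UMI rested on depth, since median UMIs per cell ran from 7359 in muscle and 7441 in endothelial cells to 17299 in secretory, 22655 in luminal and 24397 in squamous cells. As sequenced, *Bpifa1* was found in 98.2% ± 1.63 (SD, n = 3 libraries) of secretory cells, but also in 97.2% ± 2.23 of squamous and 78.8% ± 13.6 of muscle cells. With every cell thinned to 2000 UMIs, these shares were 71.9% ± 10.6, 35.8% ± 13.1 and 40.9% ± 19.3. The squamous share of *Bpifa1* then lay at the background. Thinning left out 35 secretory, 2 squamous and 64 muscle cells.

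Thinned shares of *Ltf* were 76.3% ± 11.3 in gland, 30.4% ± 7.59 in luminal, 24.1% ± 8.06 in secretory, 14.5% ± 12.2 in basal and 11.3% ± 3.30 in squamous cells, against 7.82% ± 3.89 in muscle cells (89.2%, 66.1%, 52.6%, 41.1%, 48.6% and 23.0% as sequenced). *Pigr* was found in 69.0% ± 7.37 of thinned gland cells, 14.6% ± 7.30 of secretory and 13.7% ± 2.97 of ciliated cells, and in 0.457% ± 0.35 of muscle cells (81.5%, 26.2%, 37.1% and 1.49% as sequenced). The background of *Pigr* was thus far below that of *Bpifa1* or *Ltf*. *Wfdc2* was in 98.4% ± 1.21 of thinned secretory and 93.3% ± 3.15 of thinned basal cells, against 16.8% ± 8.21 of muscle cells (100%, 98.9% and 44.1% as sequenced). *Reg3g* was in 70.7% ± 4.34 of thinned ciliated and 62.4% ± 3.68 of luminal cells, and in 5.15% ± 0.823 of squamous cells, at or under the 5.71% ± 1.98 of muscle cells (84.2%, 89.9%, 40.1% and 19.7% as sequenced). *Bpifb1* was in 23.1% ± 12.8 of thinned gland cells and 5.05% ± 4.14 of muscle cells (40.1% and 13.2% as sequenced).

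**Figure D3:**
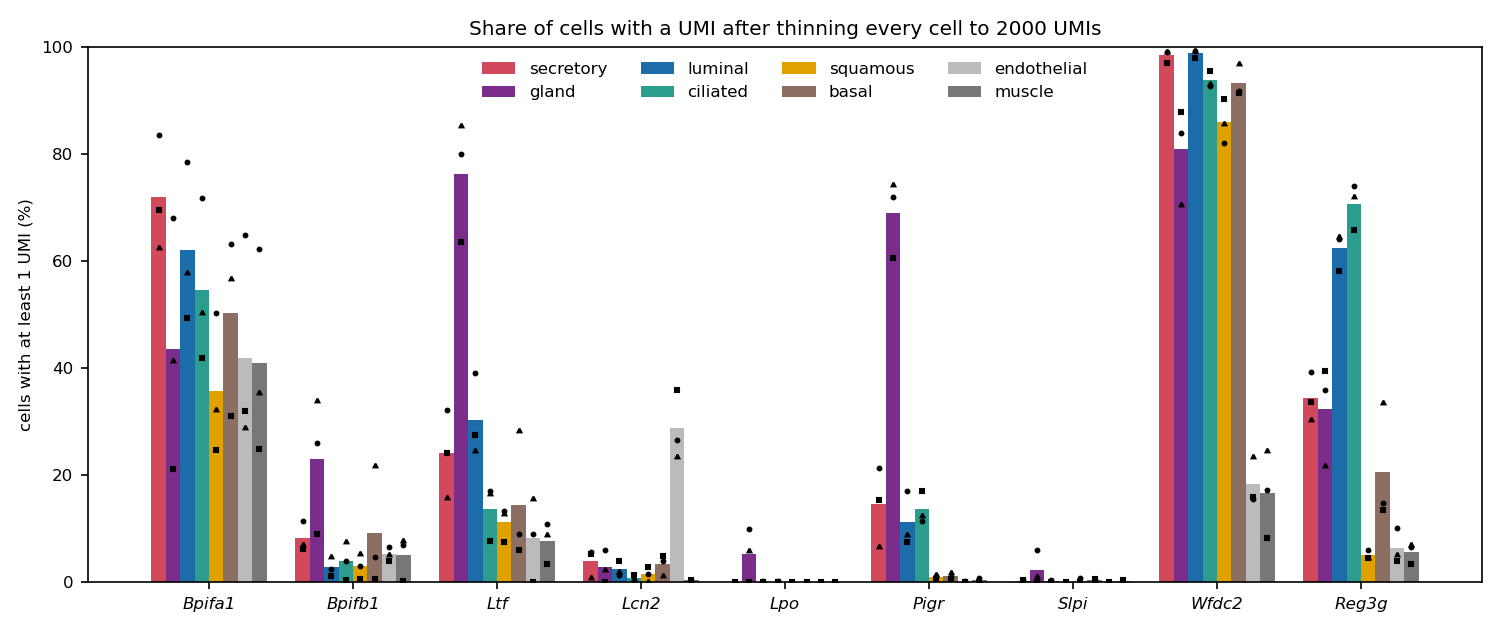
Percent of cells with at least 1 UMI of each gene after every cell was thinned to 2000 UMIs, in 6 epithelial classes and in endothelial and muscle cells, with bars at the mean and points for library 1 (circle), 2 (square) and 3 (triangle). The bars of *Bpifa1* run from 35.8% in squamous to 71.9% in secretory cells, with muscle at 40.9%, whereas those of *Pigr* reach 69.0% in gland and 0.457% in muscle cells.

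Within the gland gate, single cells differed in which secretions they held. With 10000 CPM in a single cell as a limit, chosen after the values were seen, 78 cells (26, 15 and 37 in libraries 1, 2 and 3) were high for *Ltf* alone, 14 (4, 0 and 10) for *Bpifb1* alone, 14 for both and 63 for neither. Of the cells high for *Bpifb1*, as many were high for *Ltf* as were not. The groups were cut on these genes, so their own levels describe the cut. The *Lpo* UMIs of the glands were spread over these groups and differed by library. Cells high for *Ltf* alone held 21, 6 and 17 of them, those high for *Bpifb1* alone 1 in library 1 and 31 in library 3, those high for both 18 in all and those high for neither 12. *Reg3g* was at 6850.1, 21628 and 20896 CPM in the cells high for neither, against 1000.3, 770.3 and 464 CPM in those high for *Ltf* alone. Gland cells with 8 or more UMIs of the mucin *Muc5b* (57 cells) had 7312, 20745 and 18725 CPM of *Reg3g*, and all 19 gland cells at or over 10000 CPM of *Reg3g* were among them. These cells are few, with 33 to 83 gland cells in a library.

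**Figure D4:**
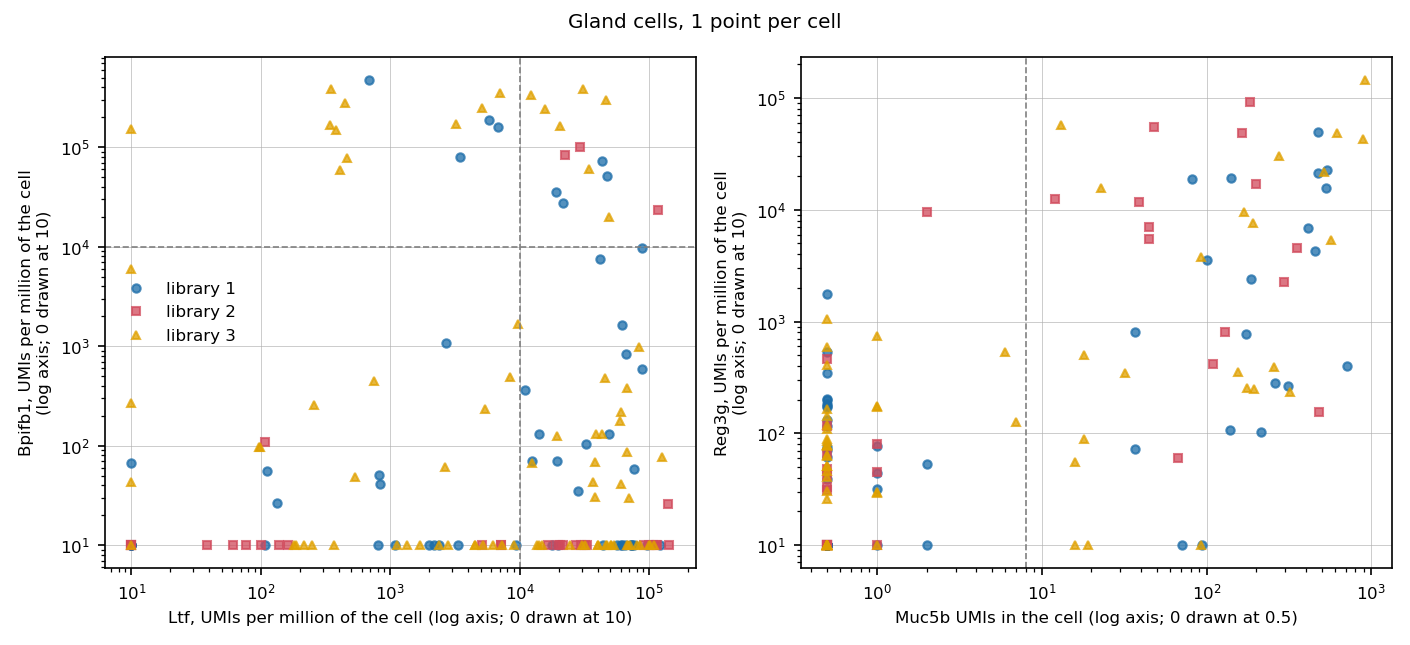
The 169 gland cells, 1 point per cell coloured by library, on log axes of CPM in the cell for *Ltf* and *Bpifb1* (left) and of *Muc5b* UMIs and *Reg3g* CPM (right), with dashed lines at 10000 CPM and at 8 UMIs. On the left 78 cells pass the line for *Ltf* alone, 14 for *Bpifb1* alone and 14 for both, and on the right all 19 cells at or over 10000 CPM of *Reg3g* lie past the line for *Muc5b*.

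Surface cells also differed among themselves. Secretory cells with 8 or more UMIs of *Scgb1a1*, the club cell secretoglobin (385 cells), had 129581, 127855 and 125612 CPM of *Bpifa1*, and the other 3662 cells 35709, 25648 and 16769.6 CPM. The level of the high group varied little between libraries and that of the other group more, and the high group also differed in size (172, 70 and 143 of 1111, 547 and 2389 secretory cells). The same cells had 811, 989.6 and 426 CPM of *Pigr* against 149.7, 79.8 and 48.7 CPM. *Reg3g* was at 6808, 8046 and 3811 CPM against 1634, 981 and 696 CPM, and *Bpifb1* at 534, 646 and 489 CPM against 28.7, 7.09 and 29.7 CPM. Secretory cells with 8 or more *Muc5b* UMIs (131 cells) had a mean of 157533 ± 16442 CPM of *Bpifa1* and 20222 ± 5935 CPM of *Ltf* (SD, n = 3 libraries). Luminal cells with 8 or more *Muc5b* UMIs were only 22, yet held 45728 of the 135823 luminal *Reg3g* UMIs, at 57628, 57933 and 104121 CPM, with 396, 1771 and 124 CPM of *Bpifa1*. *Scgb1a1* is a gate gene of the secretory class, and these splits were made after the values were seen and were not tested.

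The study compares cells with at least 1 *Lrig1* UMI (*Lrig1*+) with those without (*Lrig1*-). Of secretory cells, 654, 351 and 1485 were *Lrig1*+ and 457, 196 and 904 *Lrig1*-. *Bpifa1* was at 33659.9, 23220.0 and 17735 CPM in *Lrig1*+ and at 76360.4, 66156 and 30255 CPM in *Lrig1*- secretory cells, 0.351 to 0.586 times as high within a library. *Ltf* was at 3566, 2713 and 2648 against 6197, 5327 and 4375 CPM, and the groups did not overlap. *Reg3g* was at 1256, 1089 and 704 against 4389.8, 3125 and 1124 CPM, and *Pigr* at 165, 116 and 55.7 against 379, 304 and 87.9 CPM. *Wfdc2* was at 3964, 3229 and 3693 against 5085, 3915 and 4068 CPM. In each library all of these, and *Bpifb1*, had the lower level in *Lrig1*+ secretory cells, although the groups overlapped between libraries for *Bpifa1*, *Reg3g*, *Pigr* and *Wfdc2*.

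**Figure D5:**
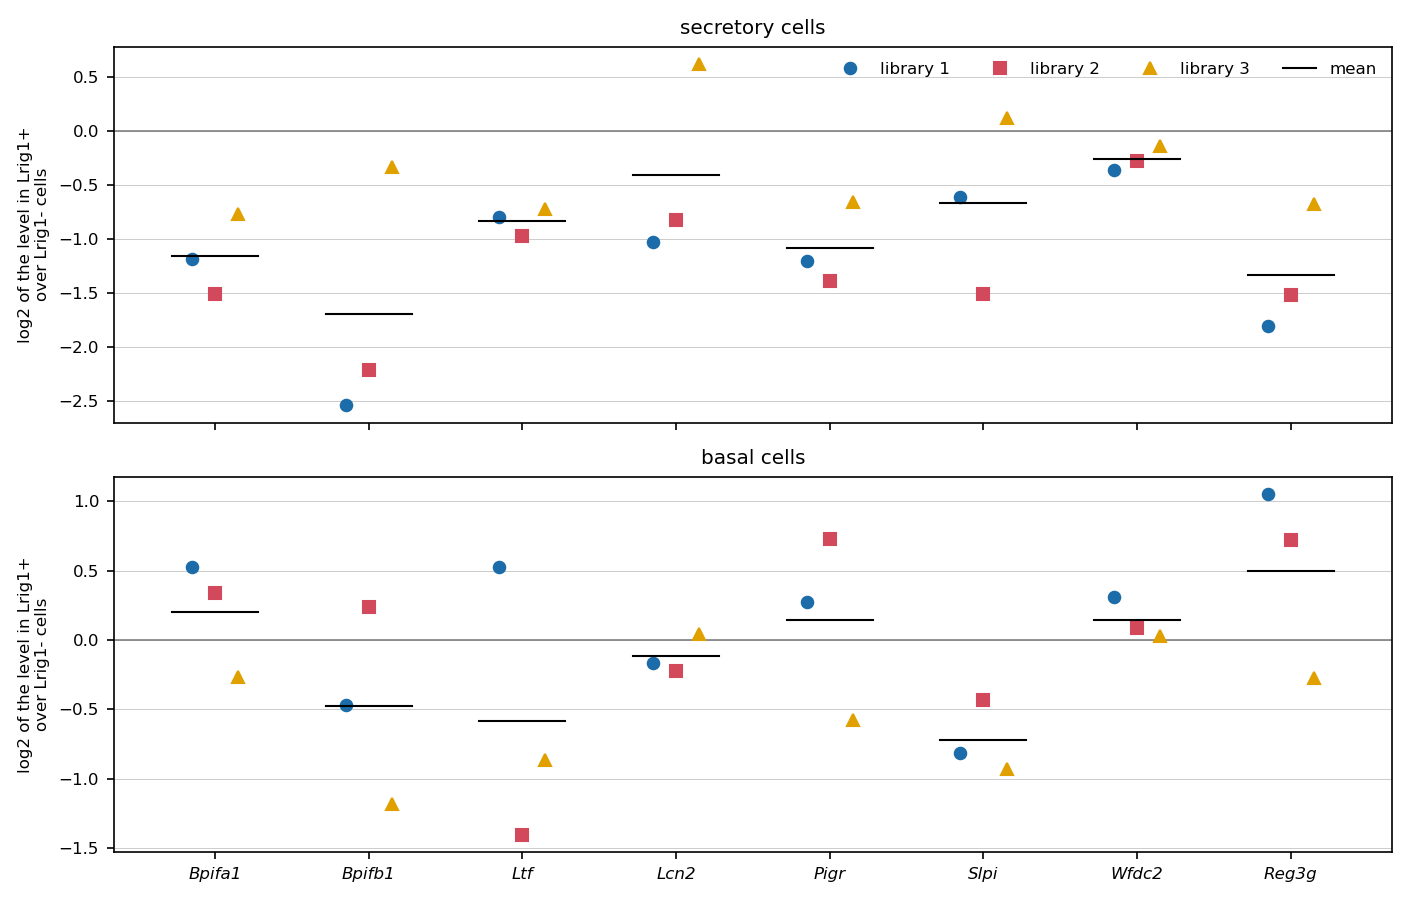
Level in *Lrig1*+ cells over level in *Lrig1*- cells of the 8 members tested, in secretory cells (top) and basal cells (bottom), on a log2 axis with 1 point per library, a bar at the mean and a line at equal levels. In secretory cells *Ltf*, *Bpifa1*, *Bpifb1*, *Pigr*, *Wfdc2* and *Reg3g* lie under the line in all 3 libraries and *Lcn2* and *Slpi* in 2, while in basal cells only *Slpi* is under it in all 3.

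edgeR without the library in the fit called 0 of 13760 genes in secretory cells, and so 0 of the 8 members tested (0%). At an unadjusted p under 0.05 it had 722 genes and 5 members, and DESeq2 called 11 genes (0.0799%), *Ltf* among them (−0.95, adjusted p = 0.000648). The *Lrig1*+ and *Lrig1*- cells of a library were from 1 pool of animals, and with the library as a block edgeR called 430 genes, with 7 members lower, where 2.01% of genes were lower. The log2 fold changes of this fit were −1.26 ± 0.10 for *Bpifa1* (edgeR, adjusted p = 2.0e-05), −0.93 ± 0.05 for *Ltf* (adjusted p = 1.15e-06), −1.44 ± 0.15 for *Reg3g* (adjusted p = 0.000134), −1.18 ± 0.11 for *Pigr* (adjusted p = 4.03e-05), −0.36 ± 0.05 for *Wfdc2* (adjusted p = 0.00126), −1.71 ± 0.29 for *Bpifb1* (adjusted p = 0.00618) and −0.80 ± 0.18 for *Lcn2* (adjusted p = 0.0302). *Lcn2* was 1.54 times as high in *Lrig1*+ as in *Lrig1*- cells of library 3, and it was not called in the blocked fit without library 1 (−0.41, adjusted p = 0.547) or without library 2 (−0.73, adjusted p = 0.297). Without library 2 this edgeR fit called 4 members lower (*Ltf*, *Bpifa1*, *Pigr* and *Reg3g*), beside 75 of 14234 genes lower. It lost *Bpifb1* (−1.48, edgeR, adjusted p = 0.158) and *Wfdc2* (−0.33, adjusted p = 0.0634) too. *Slpi* had −0.76 ± 0.36 (edgeR, adjusted p = 0.32).

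*Lrig1*+ secretory cells were deeper, with medians of 19304.5, 23626 and 17553 UMIs against 15297, 18671.5 and 14131 UMIs. After thinning to 5000 UMIs, 303, 153 and 718 of them still had an *Lrig1* UMI. The others counted as *Lrig1*- or were left out, so the thinned groups hold other cells than the groups above. With each cell thinned to 5000 UMIs and *Lrig1* status called again on the thinned counts, the blocked fit called 6 members lower (*Ltf*, *Bpifa1*, *Bpifb1*, *Pigr*, *Wfdc2* and *Reg3g*), with *Bpifa1* at −1.24 and *Ltf* at −0.84, where 0.884% of 11535 genes were lower. The smallest adjusted p of the blocked edgeR fit was 8.26e-21 with thinned cells and 1.15e-06 before thinning, and the source of this gap was not tested. Without the block the thinned cells gave 0 genes and 0 members by edgeR, with 404 genes and 5 members at an unadjusted p under 0.05. The groups also differed in their makeup, since 8.26%, 7.12% and 3.84% of *Lrig1*+ secretory cells had 8 or more *Scgb1a1* UMIs, against 25.8%, 23.0% and 9.51% of *Lrig1*- cells. Among secretory cells under that limit, *Bpifa1* was 0.497, 0.475 and 0.696 times as high in *Lrig1*+ as in *Lrig1*- cells and *Ltf* 0.546, 0.562 and 0.627 times. *Bpifb1* was at 0.58, 0.613 and 1.02 times there. At or over the limit *Bpifa1* was at 0.649, 0.362 and 0.522 times, *Ltf* at 1.07, 0.605 and 0.656 times and *Bpifb1* at 0.203, 0.437 and 0.869 times, so that *Ltf* was not lower in *Lrig1*+ cells of library 1.

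In basal cells edgeR without the block called 0 of 16328 genes, with 460 genes and 0 members at an unadjusted p under 0.05, and DESeq2 called 10 genes and 0 members. *Bpifa1* was at 2433, 1249 and 2398 CPM in *Lrig1*+ and 1689, 986 and 2887 CPM in *Lrig1*- basal cells, higher in 2 libraries and lower in 1. With the block 2 members were lower, *Bpifb1* at −0.87 ± 0.14 (edgeR, adjusted p = 0.00719) and *Slpi* at −0.73 ± 0.19 (edgeR, adjusted p = 0.0456), where 4.87% of genes were lower. *Bpifb1* was 1.18 times as high in *Lrig1*+ as in *Lrig1*- cells of library 2, and was lost without library 3 (−0.32, edgeR, adjusted p = 0.183). *Slpi* was lost without library 1 (adjusted p = 0.158) and without library 3 (adjusted p = 0.0802). Without library 3 the blocked fit called 4 members, *Bpifa1* (0.42), *Wfdc2* (0.19) and *Reg3g* (0.88) higher and *Lcn2* (−0.21) lower. Of 15681 genes, 531 were higher and 609 lower in that fit. The *Lrig1*+ basal cells were deeper, with medians of 16101.5, 18891 and 13693.5 UMIs against 11646, 14490 and 6566.5 UMIs. After thinning, 1041, 942 and 4062 of them still had an *Lrig1* UMI. The smallest adjusted p of the blocked edgeR fit was then 2.79e-77, against 3.70e-07 before thinning. With cells thinned to 5000 UMIs and the block, *Wfdc2* (0.11) and *Reg3g* (0.17) were higher, beside 771 of 13981 genes, and *Ltf* (−0.24) and *Bpifb1* (−0.24) were lower, beside 1074 genes, whereas *Slpi* was not called (edgeR, adjusted p = 0.205). The difference between secretory and basal cells in this comparison was tested after the data were seen, as an interaction with the library as a block, and edgeR called 3 members lower in it (*Bpifa1*, *Wfdc2* and *Reg3g*), where 0.279% of genes were lower.

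Over all 44542 cells kept, with the 9653 cells of no class included, edgeR without the block called 0 of 19721 genes, with 2564 genes and 3 members at an unadjusted p under 0.05, and DESeq2 called 780 genes (3.96%) and 1 member, *Ltf* (−0.75, adjusted p = 0.00561). With the block *Wfdc2* was higher (0.40 ± 0.09, edgeR, adjusted p = 0.038; 10.4% of genes), and *Ltf* (−0.74 ± 0.16, adjusted p = 0.0316), *Bpifb1* (−3.00 ± 0.73, adjusted p = 0.0451) and *Slpi* (−1.59 ± 0.33, adjusted p = 0.0303) were lower (13.2% of genes). Without library 2 that fit called 1 member lower, *Slpi*, beside 427 of 20329 genes lower. It lost *Wfdc2* (edgeR, adjusted p = 0.161), *Ltf* (0.0767) and *Bpifb1* (0.151). Without library 3 it lost *Ltf* (edgeR, adjusted p = 0.0606), *Bpifb1* (0.144) and *Slpi* (0.0918). That fit called 1 member higher and 1 lower, beside 962 and 2051 of 19853 genes, and the lower one was not called with all libraries. The *Lrig1*+ cells were deeper, with medians of 15014, 17829.5 and 14260 UMIs against 7320.5, 9746 and 6353 UMIs. After thinning, 2567, 2038 and 6311 of them still had an *Lrig1* UMI. With cells thinned to 5000 UMIs and the block, *Wfdc2* was not called (0.18, edgeR, adjusted p = 0.105), while *Ltf*, *Bpifa1*, *Bpifb1*, *Pigr*, *Slpi* and *Reg3g* were lower, beside 1545 of 17341 genes. These sums mix cells in unequal shares. *Lrig1*+ cells were 61.5% of secretory cells, 28.4% of gland cells and 29.3% of the 8570 cells in no gate. They were 74.3% of the 905 cells in several of the secretory, gland, luminal, squamous and ciliated gates. The cells in no gate held 23.0% of all *Bpifb1* UMIs, and their part in the *Bpifb1* value was not tested.

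In other classes the same ratio is given as a description. In luminal cells *Ltf* was 0.462, 0.359 and 0.409 times as high in *Lrig1*+ as in *Lrig1*- cells, *Reg3g* 0.508, 0.262 and 0.464 times, *Pigr* 0.357, 0.412 and 0.345 times and *Wfdc2* 0.683, 0.481 and 0.642 times. Of the luminal UMIs, 10 of 1504 cells held 19.0% for *Ltf*, 26.0% for *Reg3g*, 26.0% for *Pigr* and 8.76% for *Wfdc2*. The part of such cells in the ratios was not tested. Luminal *Lcn2* had the opposite direction in all 3 libraries, at 4.40, 5.88 and 1.56 times. An *Lcn2* UMI was found in 126 of the 1504 luminal cells, and 10 cells held 52.2% of the UMIs, so that these ratios rest on few cells. In squamous cells *Ltf* was at 82.6, 69.4 and 117 CPM in *Lrig1*+ and at 494, 684 and 411 CPM in *Lrig1*- cells. In each library the *Lrig1*- squamous cells had the higher level, without overlap between the groups. Of the squamous *Ltf* UMIs, 51.0% were in 10 of 1239 cells, whose part in this difference was not tested. Squamous *Wfdc2* was 1.32, 1.13 and 1.24 times as high in *Lrig1*+ cells. The glands had 13, 11 and 24 *Lrig1*+ cells against 40, 22 and 59 *Lrig1*- cells in the 3 libraries. There the *Lrig1*+ cells had the higher level of *Pigr* (1.19, 1.34 and 1.66 times), *Wfdc2* (1.63, 1.09 and 1.36 times) and *Reg3g* (1.41, 9.77 and 1.24 times) in all 3 libraries. In library 2, a pair of *Lrig1*+ cells held 4126 of the 5235 gland UMIs of *Reg3g*. Gland *Bpifb1* was at 9196, 0 and 4180 CPM in *Lrig1*+ against 11605, 18735 and 83987 CPM in *Lrig1*- cells. In library 2, 3 *Lrig1*- cells held 6547 of the 6549 gland UMIs of *Bpifb1*, so that these gland values rest on few cells. *Bpifa1* in luminal cells, at 0.96, 0.591 and 1.29 times, and *Ltf* in gland cells, at 1.20, 0.624 and 1.25 times, had no direction shared by the libraries.

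Other genes of mucosal defence, in 7 lists, were read in the same fits, where the share of all genes called higher and lower than in basal cells was 5.97% and 4.94% in secretory, 14% and 15.4% in gland, 6.77% and 6.18% in luminal and 13.2% and 14.7% in squamous cells. With the library as a block, of 16987 genes 1613 were higher and 1379 lower in secretory cells and 2570 and 2963 in gland cells. In that fit 1689 were higher and 1551 lower in luminal cells, and 3095 and 3283 in squamous cells. Of 12 other BPI-fold genes 2 had enough counts to be tested. *Bpifb5* was higher in gland than in basal cells (7.69 ± 0.91, edgeR, adjusted p = 2.22e-06). None of them was called in secretory, luminal or squamous against basal cells. Their medians of log2 fold change were 1.20, 2.88, −1.84 and −3.00 in secretory, gland, luminal and squamous against basal cells. Over all genes these medians were −0.02, −0.25, −0.05 and −0.10.

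Of 12 antiproteases, 11 were tested. In secretory cells 4 were higher and 2 lower than in basal cells (median 0.64), in gland cells 4 and 2 (0.55), in luminal cells 3 and 1 (0.26) and in squamous cells 4 and 1 (0.35). *Wfdc12* (11.15 ± 0.81) and *Wfdc18* (9.50 ± 0.96) were higher in gland cells, *Wfdc1* in secretory (3.83 ± 0.42) and luminal cells (5.38 ± 0.44), and the cornified-layer inhibitors *Csta1* (3.97 ± 0.37) and *Spink5* (3.20 ± 0.41) in squamous cells. *Csta1* was lower in secretory cells (−2.89 ± 0.47), and *Spink5* was called lower in gland cells (edgeR, adjusted p = 0.00935), which had no UMI of it against 30.4, 5.35 and 16.0 CPM in basal cells. Of 10 genes of oxidant defence 8 were tested, with 0 higher and 2 lower in secretory cells (median −0.79), 0 and 2 in gland (−3.99), 3 and 0 in luminal (0.80) and 4 and 1 in squamous cells (0.94). With the library as a block, 1 was lower in luminal cells. *Duox2*, an oxidase that makes hydrogen peroxide, was higher in luminal (2.70 ± 0.56) and squamous cells (3.23 ± 0.56), at levels of 0.599 to 1.31 CPM and 1.05 to 1.57 CPM. Endothelial cells had more of it, at 13.9, 21.4 and 11.4 CPM. *Duox1* was lower in secretory (−1.73 ± 0.19) and gland cells (−4.56 ± 0.52), the class that held *Lpo*.

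Of 9 genes of iron and lipocalin handling 8 were tested, with 2 higher and 0 lower in secretory cells (median 0.61), 2 and 0 in gland (0.57), 0 and 1 in luminal (0.03) and 1 and 4 in squamous cells (−1.67). With the library as a block 4 were higher in secretory cells. *Trf*, transferrin, was higher in secretory cells (2.24 ± 0.27) and lower in squamous cells (−5.10 ± 0.45). Of 21 lectins and antimicrobial peptides 12 were tested, with 6 higher and 0 lower in secretory (median 1.88), 7 and 2 in gland (1.79), 4 and 1 in luminal (0.56) and 1 and 2 in squamous cells (−1.04). With the block 1 was lower in secretory and 5 in squamous cells. Lysozyme *Lyz2* was higher in gland (7.98 ± 0.50), secretory (4.54 ± 0.43) and luminal cells (4.22 ± 0.42). The chemokine *Ccl28*, which attracts IgA plasma cells, was higher in gland (7.32 ± 0.41) and secretory cells (2.81 ± 0.35), the first of which also had the highest *Pigr*.

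Of 8 genes of IgA transport and complement 6 were tested, with 3 higher and 0 lower in secretory (median 0.73), 2 and 0 in gland (0.95), 1 and 1 in luminal (0.27) and 0 and 2 in squamous cells (−0.88). With the block 2 were higher and 2 lower in luminal cells, and 4 were lower in squamous cells. Complement factor B, *Cfb*, was higher in secretory (3.28 ± 0.47), luminal (2.89 ± 0.47) and gland cells (2.63 ± 0.80). Of 15 receptors and regulators 14 were tested, with 4 higher and 0 lower in secretory (median 0.09), 3 and 4 in gland (−0.35), 4 and 1 in luminal (0.06) and 3 and 2 in squamous cells (−0.26), the last of which was 4 with the block. *Spdef*, a factor of mucous cell differentiation, was higher in gland (7.22 ± 0.34), secretory (2.67 ± 0.28) and luminal cells (2.43 ± 0.29) and lower in squamous cells (−2.94 ± 0.53). *Nkx2-1* was higher in secretory (1.21 ± 0.27) and lower in luminal cells (−2.85 ± 0.30). Among the genes of these lists named here, the edgeR adjusted p was 0.0136 (*Cfb* in gland cells) or lower.

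Across 30 sums of a library and class, the gene whose log2 level followed each member most closely was *Itprid1* for *Ltf* (Pearson's r = 0.94), *Slc15a2* for *Bpifa1* (0.89), *2310057J18Rik* for *Bpifb1* (0.94), *Mctp1* for *Lcn2* (0.79), *Muc19* for *Lpo* (0.97), *Slc44a4* for *Pigr* (0.95), *Creg1* for *Slpi* (0.76), *Marveld3* for *Wfdc2* (0.98) and *Serpinb11* for *Reg3g* (0.95), among 10835 genes at a mean of 10 CPM or more. The sums share libraries and depth, and r describes them without a test. Among the members themselves, r was highest for *Pigr* and *Reg3g* (0.92), and was 0.90 for *Bpifb1* and *Lpo*, 0.39 for *Bpifa1* and *Bpifb1* and −0.18 for *Ltf* and *Lcn2*.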

How the data were processed

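The 3 libraries of sorted larynx cells were made by the authors with the 10x GEM-X 3′ v4 chemistry and counted with Cell Ranger 8.0.1 against mm39, per the labels. The deposited matrices hold raw UMI counts per gene and barcode, with no normalization, and 60530 barcodes in all. The members and gene lists were chosen with earlier results of these data known.

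Barcodes were kept (14252, 7527 and 27614) if they had 500 to 8000 genes, 1000 to 40000 UMIs and a mitochondrial share of 8% or less. Likely doublets were scored per library against simulated doublets (2000 variable genes, 30 principal components, 50 neighbours, 0.4% expected per 1000 barcodes), and 4851 were removed, which left 44542 cells. Markers of some classes (*Cyp2f2*, *Krt15*) had a UMI in most cells, so each marker got its own UMI threshold and a class needed at least 2 markers past theirs, in place of the summed UMIs first planned. Thresholds were set on the marker counts without the members. The gland gate held a further marker that is not reported here. Cells in several of the secretory, gland, luminal, squamous and ciliated gates were in no class. Cells that mixed marker genes of different tissues, or passed no gate, were in no class either. Cells of other tissues had at most 5 epithelial marker UMIs. For shares, cells were thinned to 2000 UMIs, and for the *Lrig1* comparison to 5000.

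Counts were summed per library and class (at least 20 cells, 30 sums), and all classes were fitted together by edgeR's quasi-likelihood test (edgeR 4.0.16 in R 4.3.3) over the genes left by its filter on low counts, with TMM scaling. A call is a Benjamini-Hochberg adjusted p under 0.05 over all genes tested, two-sided. The background is the mean of endothelial and muscle cells on the log2 scale. On simulated counts, 100% of genes changed 4-fold and 75% of those changed 2-fold were called in secretory against basal cells (200 changed genes among 15095) and in the *Lrig1* comparison of secretory cells (among 13576). These counts had the same spread for every gene and no difference between libraries beyond depth, and only well-counted genes were changed. The shares therefore say little about power in the real counts, where the *Lrig1* fit of secretory cells without the block called 0 genes. Genes other than the members were named by rule, at most 3 called genes of each list with the largest change and, for likeness, 3 genes with the highest Pearson's r of which the first is given. The subsets of gland and surface cells and their limits were chosen after the values were seen.

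Both sums of a library in the *Lrig1* comparisons come from the same pool of animals, which is the pairing. Deviations of same-library sums from their group means correlated at 0.35, 0.37 and 0.61 in secretory cells, 0.46, 0.67 and 0.81 in basal cells and 0.66, 0.60 and 0.73 over all classes, and at 0.04 to 0.47 between classes. Alternatives were the library as a block, DESeq2 1.42.0 with its own size factors, no filter on low counts, gates at 2 times the UMI threshold, cells of several gates given to 1 class, cells before doublet removal, thinned cells and leaving out each library. Wilson intervals (SciPy 1.17.1) and limits from a count of 0, set at 3 counts, cover counting error only. Promoters were read from GRCm39 with GENCODE vM39 starts.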

Additional observations from a re-analysis of the deposited data

Results flagged for a closer look

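The *Lrig1* difference in secretory cells was set against the same difference in basal cells, as an interaction in edgeR with the library as a block, a test added after the data were seen. For 3 of the 8 members tested it differed between the classes. *Bpifa1* had −1.45 ± 0.21 (log2, SE, edgeR, adjusted p = 0.0196), *Reg3g* −1.87 ± 0.32 (adjusted p = 0.0261) and *Wfdc2* −0.50 ± 0.09 (adjusted p = 0.0422). For each, the fold change of *Lrig1*+ against *Lrig1*- cells was lower in secretory than in basal cells. Of 15405 genes, 65 were called in this fit, and 0.279% were called in the lower direction. Without the block edgeR called 0 genes (adjusted p = 0.999968 for each of the 3), with 264 genes and 3 members at an unadjusted p under 0.05. The part of cell depth in the difference was not tested.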

How the results depend on the processing

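With 3 libraries, calls on single genes rested on few values, and the calls that a library decides stand beside the results above. Of the tests of members that the fit with or without the block called, and of *Bpifb1* in basal cells against the background, 383 kept direction and call, 68 gained a call, 21 lost one and 2 reversed, both for *Bpifb1* in basal cells (−0.88 to 1.35 when leaving out each library, the lowest without library 3, edgeR, adjusted p = 0.469, and −0.28 with gates at 2 times the threshold, adjusted p = 0.803). The library as a block changed the call of *Bpifb1* and *Wfdc2* in secretory against basal cells, of *Pigr* in basal cells against the background and of the *Lrig1* comparisons, and changed no other call of a member. *Lcn2* in basal cells against the background, called in neither fit, went from 0.10 to −0.09 with it.

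The number of genes called moved with the libraries used. Leaving out each library gave 564 to 1725 genes in secretory against basal cells (1853 with all), 2875 to 4323 in gland against basal (4998; 5 to 8 members), 754 to 1973 in luminal against basal (2200), 1492 to 3791 in squamous against basal (4738; 1 to 2 members), 2208 to 3616 in secretory against gland (4099) and 4794 to 7624 in basal cells against the background (8081). Gates at 2 times the threshold gave 3260 genes in secretory and 3343 in luminal against basal cells, and the block gave 2992 in secretory against basal cells. The causes were not tested.

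For *Lrig1*+ against *Lrig1*- cells, where edgeR without the block called 0 genes and 0 members, the block gave 430 genes and 7 members in secretory, 1336 and 2 in basal and 4661 and 4 in all cells, and 65 and 3 for the difference between secretory and basal cells. Blocked fits without a library gave 187, 97 and 804 genes and 6, 4 and 7 members in secretory (without libraries 1, 2 and 3), 819, 1812 and 1140 genes and 2 to 4 members in basal and 4009, 440 and 3013 genes and 1 to 5 members in all cells. Thinned cells with the block gave 159 and 6, 1845 and 4, and 2638 and 6. DESeq2 gave 11 genes and 1 member in secretory, 10 genes in basal and 780 genes and 1 member in all cells. Without the low-count filter edgeR gave 6 genes and 1 member in secretory cells, and leaving out each library without the block gave 0 to 32 genes and 0 to 3 members there.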

Other observations

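Cells that passed more than 1 of the secretory, gland, luminal, squamous and ciliated gates, and no gate of another tissue, were in no class. They numbered 905 and held 28.5% of all *Ltf* UMIs, 22.9% of *Pigr* and 17.3% of *Bpifa1* UMIs. A further 178 cells mixed marker genes of different tissues and were in no class either. The 84 cells that passed both the secretory and the gland gate had 85241 CPM of *Ltf*, pooled over libraries, and held 21.5% of its UMIs. The 219 cells that passed both the secretory and the luminal gate had 97532.5 CPM of *Bpifa1* and held 13.0% of its UMIs. The part of doublets in these values was not tested. Cells that passed no gate numbered 8570, with a median of 3243.5 UMIs, and held 23.0% of *Bpifb1* UMIs, of which 28349 of 30990 came from library 3. Without library 3 the share was 11.2%.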
